A study of Mus musculus with 2 samples.

Results

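Immediate early genes and heat shock genes were followed across cell types in 2 single-cell RNA libraries from mouse lung tumours. The members are 37 genes of the 32285 in the matrices, found by their symbols, 30 of them immediate early genes and 7 heat shock genes. Each library was made from cells sorted as CD4- or CD8-positive T cells from the lungs of bone marrow chimeras, mice whose blood cells come from a donor after irradiation. The recipients in both groups were the same kind of mouse, called KL by the submitters, with floxed Lkb1 alleles (Lkb1fl/fl) that the intranasal adenovirus with Cre (Ad-Cre) removes in the airway, and cells were taken at 8 weeks. The donors were Tmem173fl/fl for the library WTKL and Tmem173fl/fl;Lyz2-Cre for the library LYZKL. Lyz2-Cre is active in the myeloid lineage, so the floxed gene, which codes for the DNA-sensing adaptor STING, is to be removed from macrophages, monocytes and neutrophils and not from T cells. Recombination by Lyz2-Cre can be incomplete, and host cells that survive irradiation, such as some tissue macrophages, can remain among the donor cells. Both donors thus carry the floxed alleles and both recipients the tumour model. Tamoxifen is named among the treatments of WTKL and is missing from those of LYZKL, and the number of mice pooled in each library is not given. With 1 library in each group no difference has a replicate check, and no p-value is given. Intervals at 95% cover the counting of molecules and not the spread between animals. WTKL and LYZKL are the libraries so labelled.

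Immediate early genes are transcribed within minutes of a stimulus from promoters that are already open, without new protein synthesis. In T cells the antigen receptor drives them through calcium, mitogen-activated kinases and NF-kappaB, and in neutrophils and macrophages microbial products, cytokines and adhesion do so. Their products include the AP-1 transcription factors of the Fos and Jun families, the Egr and Nr4a factors, and proteins that end the response, such as the kinase phosphatases of the Dusp family, the NF-kappaB inhibitors and the RNA-binding proteins of the Zfp36 family. Enzymatic digestion of a tissue and sorting also switch them on. Heat shock genes code for chaperones that refold damaged protein, and their stress-inducible members are driven by heat shock factor 1, which binds heat shock elements in their promoters.

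The matrix of WTKL held 12204 barcodes with 77181312 unique molecular identifiers (UMIs, which stand for captured RNA molecules) and that of LYZKL 13607 barcodes with 93584629 UMIs. The labels state 6609 and 7202 cells, and 100 barcodes were shared by the libraries. After removal of barcodes with fewer than 500 detected genes or more than 10% mitochondrially coded UMIs, 12003 and 13451 cells were kept, with medians of 4840 and 5327 UMIs. The 37 genes took 1.58% of all UMIs in WTKL and 1.48% in LYZKL. Cells were assigned to types by UMIs of fixed markers. Cells over the minimum of more than one lineage were left out as mixed (11.2% and 9.07%), and 4.74% and 9.47% had no type. Although the sort was for T cells, B cells, neutrophils and macrophages or monocytes were present. In WTKL and LYZKL respectively there were 1874 and 2672 CD8 T cells, 3830 and 3602 conventional CD4 T cells (CD4 cells without Foxp3), 517 and 599 regulatory T cells (Treg, Foxp3-positive), 1908 and 1926 T cells that the markers did not divide, 510 and 368 B cells, 1064 and 1260 neutrophils and 353 and 482 macrophages or monocytes. Gamma-delta T, natural killer and plasma cells were too few to compare (at most 20 of a type in a library). Tmem173 was at 17.5 CPM (UMIs per 1000000 UMIs of the type, 69 UMIs) in neutrophils of WTKL and 3.20 CPM (17 UMIs) in those of LYZKL. In macrophages or monocytes it was at 40.7 CPM (interval 34.8 to 47.3) and 34.4 CPM (29.8 to 39.5), which overlap. In T cells it was higher in LYZKL, at 22.9 and 46.5 CPM in conventional CD4 cells, 29.2 and 76.2 CPM in Treg and 28.0 and 48.9 CPM in T cells not divided, all with intervals apart, and at 37.1 and 33.9 CPM in CD8 cells, where they overlap. The labels do not give the exons that Cre removes, so UMIs from the 3′ end may lie outside them and do not check the genotype.

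Promoters were read for the members that have an entry in the RefSeq promoter table (31 of 37, build GRCm38.p6), over the 250 bases before the start of transcription and, but for the TATA box, on both strands. Egr1, Egr3, Ier2, Nfkbiz, Myc and Hsp90aa1 had no entry. A heat shock element, spelled GAANNTTC or TTCNNGAA, was in the windows of 8 members, namely Hspa1a, Hspa1b, Hspd1, Hspe1, Hsph1, Jun, Egr2 and Fosl2, and in 12.8% of the 32851 windows of the table. The cAMP response element TGACGTCA was in 3 members (Btg2, Dusp1 and Ppp1r15a) and in 1.55% of windows. A CArG box, to which serum response factor binds, was in 3 members (Dusp5, Egr2 and Zfp36) and in 1.47% of windows, and a kappaB site in 6 (Fos, Fosb, Fosl2, Ier3, Nfkbia and Tnfaip3) and in 3.90%. The AP-1 site TGANTCA was in 2 (Tnfaip3 and Zfp36l1) and in 6.75% of windows, and the TATA box TATAAA, sought on the strand of the gene, in 4 (Fos, Gadd45b, Tnfaip3 and Zfp36l1) and in 7.59%. A member was counted if any of its windows matched, while the shares are over single windows. Members with several windows thus had more chances of a match. A match is a description of these letters and not a site shown to be bound. Dusp1, Dusp5, Btg2 and Nfkbia stand here for immediate early genes with different elements. Hspa1a and Hspa1b, the inducible HSP70 pair, stand for heat shock genes. Each stretch is given 5′ to 3′ on the strand of the gene, begins 180 bases before the start, leaves out bases inside protein-coding exons, and has the element in capitals.
Hspa1a (chr17:34972157-34972336, reverse strand): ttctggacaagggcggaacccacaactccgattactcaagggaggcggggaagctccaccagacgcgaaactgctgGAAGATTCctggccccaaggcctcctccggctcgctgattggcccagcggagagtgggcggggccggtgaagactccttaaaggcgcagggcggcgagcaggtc
Hspa1b (chr17:34959239-34959418, reverse strand): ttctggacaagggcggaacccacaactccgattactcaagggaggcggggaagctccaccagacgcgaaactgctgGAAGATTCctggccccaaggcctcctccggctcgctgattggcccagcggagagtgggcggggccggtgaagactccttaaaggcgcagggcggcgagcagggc
Btg2 (chr1:134079156-134079335, reverse strand): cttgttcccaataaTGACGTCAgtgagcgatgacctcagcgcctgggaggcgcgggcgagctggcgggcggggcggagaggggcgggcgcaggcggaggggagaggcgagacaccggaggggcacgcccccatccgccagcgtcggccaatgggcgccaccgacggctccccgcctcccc
Dusp1 (chr17:26508520-26508652, reverse strand): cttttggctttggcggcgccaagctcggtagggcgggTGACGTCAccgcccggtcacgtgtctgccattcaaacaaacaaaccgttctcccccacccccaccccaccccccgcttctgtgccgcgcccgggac
Dusp5 (chr19:53528965-53529108, forward strand): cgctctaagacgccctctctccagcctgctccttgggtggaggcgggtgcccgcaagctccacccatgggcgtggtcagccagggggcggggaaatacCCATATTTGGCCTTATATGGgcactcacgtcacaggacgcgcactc
Nfkbia (chr12:55492648-55492827, reverse strand): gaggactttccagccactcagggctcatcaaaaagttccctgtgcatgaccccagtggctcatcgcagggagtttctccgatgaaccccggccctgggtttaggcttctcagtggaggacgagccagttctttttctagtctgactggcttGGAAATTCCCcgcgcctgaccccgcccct
The Hspa1a and Hspa1b stretches share 179 of 180 bases, with the heat shock element 104 to 97 bases before the start in both. These bases lie before the start and are not part of the transcripts, so they do not show how UMIs are assigned. The transcripts of the pair were not compared. The split of UMIs between the genes, and their total, is uncertain. The cAMP response element of Btg2 lies 166 to 159 bases and that of Dusp1 143 to 136 bases before the start. Dusp5 has a pair of adjoining CArG boxes 82 to 63 bases before its start, and Nfkbia has a kappaB site 29 to 20 bases before its start.

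Most members were highest in myeloid cells. Of the 37 genes, 32 had their highest level in the same type in both libraries. That type was the neutrophil for 17 genes, CD8 T cells for 4 (Nr4a2, Dusp2, Klf6 and Hspe1), Treg for 4, macrophages or monocytes for 4 (Fos, Atf3, Klf4 and Hspa1a), B cells for 2 (Jund and Myc) and conventional CD4 T cells for 1 (Nr4a3). In the neutrophil the level was clear of the next type by counting interval in both libraries for 14 of the 17 genes, while none of the 4 genes led by Treg was. Summed over the 30 immediate early genes, neutrophils had 34931 CPM in WTKL against 26589.9 CPM in LYZKL. All T cells together had 13579.8 and 12867 CPM, so the neutrophil sum was 2.57-fold higher in WTKL and 2.07-fold higher in LYZKL. The heat shock sum went the other way, with 448 and 419.8 CPM in neutrophils and 865 and 808 CPM in T cells, a ratio of 0.517 and 0.519.

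**Figure D1:**
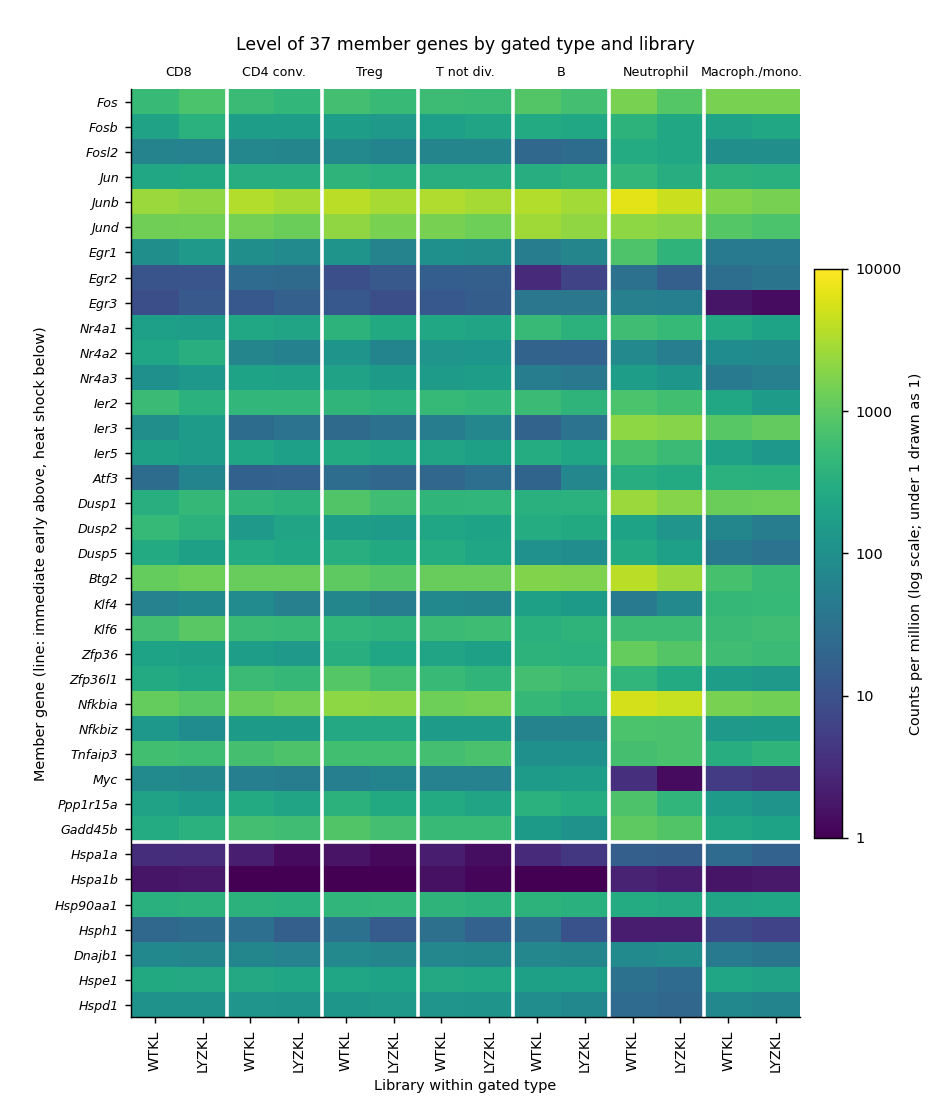
Level of each of the 37 genes (CPM, log scale, shaded) in the 7 cell types of each library. Ier3 is darkest in neutrophils and macrophages or monocytes, and Hspa1a and Hspa1b are pale throughout, at 24.9 CPM or less.

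Fos, the inducible AP-1 partner (on chromosome 12, 85473890 to 85477273 on the forward strand), was at 1585 CPM in WTKL against 1565 CPM in LYZKL in macrophages or monocytes and at 1565 CPM in WTKL against 889 CPM in LYZKL in neutrophils. The T cell types ranged from 439.8 CPM in LYZKL conventional CD4 cells to 749 CPM in LYZKL CD8 cells. Ier3, an early NF-kappaB target that modulates cell death, differed widely between lineages, with 2122 CPM in WTKL against 1844 CPM in LYZKL in neutrophils and 25.7 CPM in WTKL against 33.3 CPM in LYZKL in conventional CD4 cells. Nr4a1, which in T cells follows antigen receptor signals, was at 583 CPM in WTKL against 472 CPM in LYZKL in neutrophils, 381 CPM in WTKL against 266 CPM in LYZKL in Treg and 180.5 CPM in WTKL against 171 CPM in LYZKL in CD8 cells. Hspa1a and Hspa1b, the genes that heat induces most directly, were near the floor in lymphocytes. Hspa1a was at 3.33 CPM in WTKL against 3.21 CPM in LYZKL in CD8 cells and was highest at 24.9 CPM in WTKL against 18.2 CPM in LYZKL in macrophages or monocytes, and Hspa1b did not pass 5 CPM in any type. Hsp90aa1, the inducible cytosolic HSP90, was at 349 CPM in WTKL against 370.2 CPM in LYZKL in CD8 cells and 293 CPM in WTKL against 261 CPM in LYZKL in neutrophils, and Hspe1, the mitochondrial co-chaperone, at 273 CPM in WTKL against 255 CPM in LYZKL and 31.0 CPM in WTKL against 24.9 CPM in LYZKL. Lymphocytes thus had UMIs of these chaperones together with very few counted for the inducible HSP70 pair. Reads that match both genes of the pair may be missing from the counts, which was not checked.

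A little free RNA from neutrophils reaches other droplets, which S100a8 and S100a9, abundant neutrophil transcripts, gauge. Their sum in the T and B cell types was 0.148% to 0.373% of its neutrophil level. The same share of neutrophil Fos is 1.32 to 5.07 CPM, which is 0.269% to 0.876% of the Fos level in those types. For Ier3 the share is larger, 6.29% and 4.40% of the level in CD8 cells and 36.2% and 11.7% in B cells of WTKL and LYZKL.

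The comparison of LYZKL with WTKL asks whether loss of Tmem173 in donor myeloid cells goes with a different level of these genes in each type. It was made on CPM in each type, as a log2 ratio of LYZKL over WTKL, so that positive values are higher in LYZKL. A gene counted as measured in a type if its higher library had 5 CPM or more, and a difference of at least 1.5-fold was counted. The 7 types come from the same 2 libraries and are not independent of each other.

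**Figure D2:**
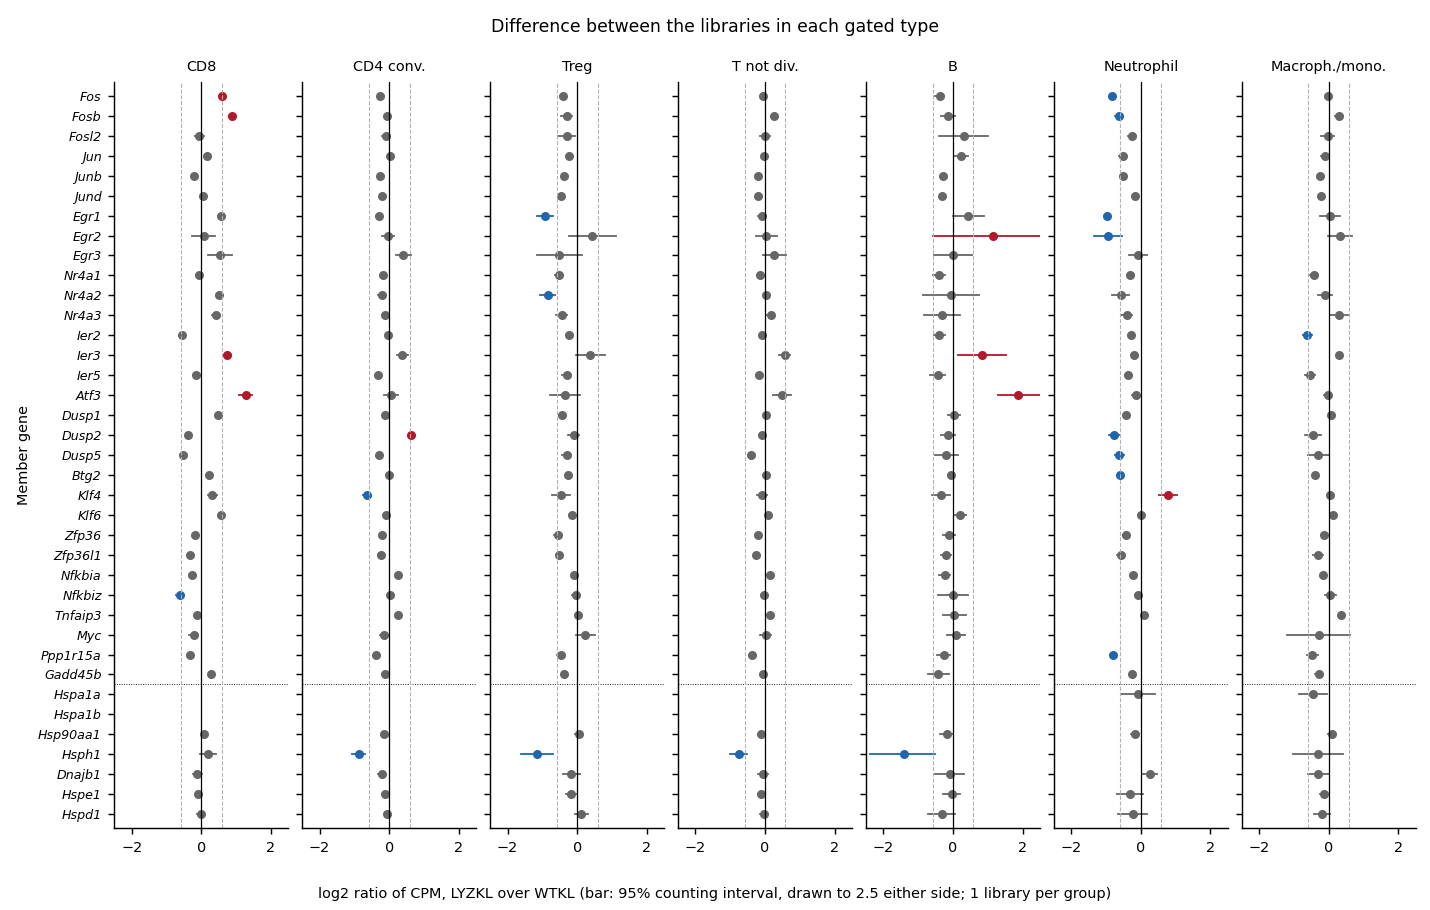
Log2 ratio of LYZKL over WTKL for each measured member (points, with 95% counting intervals) in the 7 types, with dashed lines at 1.5-fold in either direction. In neutrophils 26 of 29 immediate early points lie below 0 and in Treg 26 of 30, while in CD8 cells they lie on both sides.

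In neutrophils, 26 of the 29 immediate early genes measured were lower in LYZKL and 3 higher, and the median log2 ratio was -0.41 (interval of the gene at the median -0.56 to -0.25). Over all genes measured in neutrophils 51.1% were lower and the median was -0.01. Of the 29 genes, 8 were lower by at least 1.5-fold, against 8.8% of all genes, and 1 was higher, against 5.18%. With TMM factors from edgeR, a scaling that centres the bulk of the genes, 5 were lower by 1.5-fold, against 632 of all 8182 genes. Fosb, Dusp5 and Btg2 were then just short of it. In Treg 26 of 30 were lower, with a median of -0.33 against -0.03 over all genes. There 2 were lower by at least 1.5-fold, against 5.97% of all genes, and 0 were higher, against 4.66%. In both types the members thus lay lower in LYZKL than the bulk of the genes.

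In conventional CD4 cells 22 of 30 were lower, with a median of -0.12 (-0.19 to -0.07) against -0.01 over all genes. There 1 of 30 was lower by at least 1.5-fold, against 2.9% of all genes, and 1 higher, against 2.84%. In T cells that the markers did not divide 16 of 30 were lower (median -0.03), and 0 passed 1.5-fold in either direction, against 1.68% of all genes lower and 2.61% higher. In macrophages or monocytes 19 of 29 were lower (median -0.12, against -0.04 over all genes), with 1 lower by 1.5-fold, against 6.68% of all genes, and 0 higher, against 4.21%. In B cells 18 of 30 were lower (median -0.12), and 3 were higher by at least 1.5-fold, against 10.6% of all genes, and 0 lower, against 7.13%. In these last 4 types the members passed 1.5-fold about as seldom as other genes did.

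In CD8 cells members went both ways. There 16 of 30 immediate early genes were higher and 14 lower, and the median was 0.05, against 0.11 over all genes. Of these, 4 genes were higher by at least 1.5-fold, against 8.7% of all genes, and 1 lower, against 3.16%. The list as a whole was thus not shifted further than the other genes. This split depended on the scaling. By total UMIs 67.1% of all genes measured in CD8 cells were higher in LYZKL, and 73.3% of those past 1.5-fold. With TMM factors the shares were 52.3% and 59.5%. The 30 members then had 3 higher and 3 lower past 1.5-fold, against 606 and 413 of all 9799 genes, and a median of -0.05. Fosb, Ier3 and Atf3 were past 1.5-fold higher and Nfkbiz lower under both scalings, whereas Fos was at 0.50 (and at 0.55 with means of per-cell CPM) and Ier2 and Dusp5 came past 1.5-fold lower, at -0.64 and -0.63, under TMM.

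Across all 7 types, 8 of the 28 immediate early genes measured in each were lower in every one (28.6%), against 3.93% of the 6764 genes measured in each. These were Junb, Nr4a1, Ier2, Ier5, Dusp5, Zfp36, Zfp36l1 and Ppp1r15a. With TMM factors there were also 8, with Jund in place of Ier2, against 4.04% of genes. For Junb, Ier5, Zfp36l1 and Ppp1r15a the interval was below 0 in 7 of 7 types. Of the 4 heat shock genes measured in each type 1, Hspe1, was lower in all 7, with the interval below 0 in 5 of them. No member was higher in all 7 types, against 4.98% of genes.

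By role, the AP-1 factors went different ways in CD8 cells and neutrophils. Fos was at 495 CPM in WTKL against 749 CPM in LYZKL in CD8 cells, a log2 ratio of 0.60 (0.55 to 0.64), and at 1565 CPM in WTKL against 889 CPM in LYZKL in neutrophils, log2 ratio -0.82 (-0.87 to -0.76). Its close relative Fosb (chromosome 7, 19302696 to 19310051, reverse strand) was at 199.7 CPM in WTKL against 364 CPM in LYZKL in CD8 cells, log2 ratio 0.87 (0.80 to 0.94), and at 387 CPM in WTKL against 249.9 CPM in LYZKL in neutrophils, log2 ratio -0.63 (-0.74 to -0.52). Both genes were thus higher in LYZKL CD8 cells and lower in LYZKL neutrophils. Fos was also lower in conventional CD4 cells, at 531 CPM in WTKL against 439.8 CPM in LYZKL (log2 ratio -0.27, -0.31 to -0.23), and in Treg, at 646 CPM in WTKL against 489.8 CPM in LYZKL (log2 ratio -0.40, -0.49 to -0.31), both short of 1.5-fold. In macrophages or monocytes, at 1585 CPM in WTKL against 1565 CPM in LYZKL, the interval of the ratio included 0 (log2 ratio -0.02, -0.06 to 0.03). Junb (chromosome 8, 84974484 to 84978718, reverse strand), an AP-1 subunit expressed at rest, was lower in each type, from -0.20 (-0.22 to -0.18) in CD8 cells, at 2520.1 CPM in WTKL against 2195 CPM in LYZKL, to -0.52 (-0.54 to -0.49) in neutrophils, at 6957 CPM in WTKL against 4854 CPM in LYZKL. Jun, the partner of Fos, was at 244 CPM in WTKL against 273 CPM in LYZKL in CD8 cells (log2 ratio 0.16, 0.10 to 0.23) and at 450.3 CPM in WTKL against 313 CPM in LYZKL in neutrophils (log2 ratio -0.52, -0.62 to -0.43). Atf3, a repressor that stress and inflammatory signals induce, was at 26.3 CPM in WTKL against 63.8 CPM in LYZKL in CD8 cells, log2 ratio 1.28 (1.09 to 1.46), and at 19.6 CPM in WTKL against 71.8 CPM in LYZKL in B cells, log2 ratio 1.88 (1.29 to 2.49). The Atf3 UMIs of B cells came from 22 WTKL and 40 LYZKL cells, and the 5 cells with most UMIs held 48.5% and 40.8% of them. Fosl2 and Jund were under 1.5-fold in each type.

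The Egr and Nr4a factors include genes much used as reporters of recent receptor signals. Egr1 was at 797 CPM in WTKL against 405 CPM in LYZKL in neutrophils, log2 ratio -0.98 (-1.06 to -0.90), and at 117 CPM in WTKL against 61.8 CPM in LYZKL in Treg, log2 ratio -0.92 (-1.14 to -0.70). In CD8 cells it was higher in LYZKL, at 97.9 CPM in WTKL against 145 CPM in LYZKL, just short of 1.5-fold (log2 ratio 0.57, 0.47 to 0.67). Egr2, a low gene that restrains T cell activation, was at 31.5 CPM in WTKL against 16.4 CPM in LYZKL in neutrophils (log2 ratio -0.94, -1.35 to -0.53). In B cells its ratio of 1.15 (-0.58 to 3.08) rests on 5 and 9 UMIs and its interval includes 0. Nr4a1 (chromosome 15, 101254269 to 101274795, forward strand) was lower in each type but by different amounts, from -0.08 (-0.16 to 0.01) in CD8 cells to -0.52 (-0.63 to -0.40) in Treg. Nr4a2, of the same family, was at 116 CPM in WTKL against 64.3 CPM in LYZKL in Treg, log2 ratio -0.85 (-1.07 to -0.63), and at 225 CPM in WTKL against 318 CPM in LYZKL in CD8 cells, log2 ratio 0.50 (0.43 to 0.57). Nr4a3 was at 204 CPM in WTKL against 149 CPM in LYZKL in Treg (log2 ratio -0.45, -0.60 to -0.29) and 103 CPM in WTKL against 137 CPM in LYZKL in CD8 cells (log2 ratio 0.41, 0.31 to 0.51). In Treg all 3 Nr4a genes were therefore lower in LYZKL, and in CD8 cells 2 of the 3 were higher. Egr3, a partner of Egr2, stayed under 1.5-fold in each type where it was measured.

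Among the genes that end the response, Dusp1, which inactivates stress-activated kinases, was at 2517 CPM in WTKL against 1881 CPM in LYZKL in neutrophils (log2 ratio -0.42, -0.46 to -0.38), 808 CPM in WTKL against 592 CPM in LYZKL in Treg (log2 ratio -0.45, -0.53 to -0.37) and 336 CPM in WTKL against 467 CPM in LYZKL in CD8 cells (log2 ratio 0.47, 0.42 to 0.53). Dusp2, a nuclear phosphatase of ERK and p38 kinases in leukocytes, was higher in LYZKL conventional CD4 cells, at 139.8 CPM in WTKL against 217 CPM in LYZKL, log2 ratio 0.63 (0.57 to 0.70). It was lower in neutrophils, at 209 CPM in WTKL against 123 CPM in LYZKL, log2 ratio -0.76 (-0.91 to -0.61), and in CD8 cells, at 482 CPM in WTKL against 366 CPM in LYZKL, log2 ratio -0.40 (-0.45 to -0.34). Dusp2 and Fos thus had opposite signs in both CD4 and CD8 cells. Dusp5, which acts on ERK kinases in the nucleus, was at 279.7 CPM in WTKL against 183 CPM in LYZKL in neutrophils (log2 ratio -0.61, -0.74 to -0.49) and 274 CPM in WTKL against 189 CPM in LYZKL in CD8 cells (log2 ratio -0.53, -0.60 to -0.46). Ppp1r15a, which restores translation after stress, was lower in each type and lowest in neutrophils, at 766 CPM in WTKL against 436 CPM in LYZKL, log2 ratio -0.81 (-0.89 to -0.74). Btg2, an anti-proliferative gene, was at 3816 CPM in WTKL against 2497 CPM in LYZKL in neutrophils, log2 ratio -0.61 (-0.65 to -0.58), and nearly all neutrophils had it (96.5% and 95.1% with a UMI). These 5 genes were thus, like Fos, lower in LYZKL neutrophils. The decay factor Zfp36 was at 337 CPM in WTKL against 230.4 CPM in LYZKL in Treg (log2 ratio -0.55, -0.67 to -0.43) and 1137 CPM in WTKL against 839.6 CPM in LYZKL in neutrophils (log2 ratio -0.44, -0.50 to -0.38), short of 1.5-fold in both, and its relative Zfp36l1 at 875 CPM in WTKL against 605 CPM in LYZKL in Treg (log2 ratio -0.53, -0.61 to -0.46).

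Ier3 was the early response gene with the highest ratio after Atf3 and Fosb in CD8 cells, at 93.5 CPM in WTKL against 156 CPM in LYZKL, log2 ratio 0.74 (0.64 to 0.84). That ratio was 0.02 after removal of predicted doublets with Scrublet at a preset rate and 0.36 with the majority gate. In B cells it was at 19.0 CPM in WTKL against 33.7 CPM in LYZKL, log2 ratio 0.83 (0.15 to 1.53), in 25 and 26 cells, with 1 cell holding 21.9% of the UMIs in WTKL and a larger share in LYZKL. After the same removal the B cell ratio turned to -0.21, and with the majority gate it was 0.43. The higher Ier3 of LYZKL B cells thus rested on few cells. Ier2 was lower in LYZKL macrophages or monocytes, at 246 CPM in WTKL against 161 CPM in LYZKL, log2 ratio -0.61 (-0.74 to -0.48), and short of 1.5-fold in CD8 cells, at 524 CPM in WTKL against 359 CPM in LYZKL (log2 ratio -0.55, -0.60 to -0.49). With TMM factors the ratio in macrophages or monocytes was -0.56, no longer past 1.5-fold. Klf4, a factor of monocyte maturation and of T cell quiescence, was the one member higher by 1.5-fold in LYZKL neutrophils, at 45.2 CPM in WTKL against 77.6 CPM in LYZKL, log2 ratio 0.78 (0.52 to 1.04). Only 75 and 118 neutrophils had a Klf4 UMI, with 37.1% and 26.9% of the UMIs in 5 cells, and with the neutrophil markers set to a higher minimum or by majority the ratio was 0.45 and 0.37. The size of the Klf4 difference in neutrophils thus depended on the gate. In conventional CD4 cells Klf4 was lower, at 85.4 CPM in WTKL against 54.5 CPM in LYZKL, log2 ratio -0.65 (-0.75 to -0.55). Klf6, of the same family, was at 631 CPM in WTKL against 933 CPM in LYZKL in CD8 cells (log2 ratio 0.56, 0.52 to 0.60) and 547 CPM in WTKL against 548 CPM in LYZKL in neutrophils (log2 ratio 0.00, -0.08 to 0.08). Ier5 and Gadd45b were under 1.5-fold in each type, and so was Myc where it was measured.

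The NF-kappaB target genes Nfkbia and Tnfaip3, which inhibit the pathway, stayed under 1.5-fold in each type. Nfkbia, which codes for the inhibitor IkappaB alpha, was at 1120.4 CPM in WTKL against 923 CPM in LYZKL in CD8 cells (log2 ratio -0.28, -0.31 to -0.25), 1246 CPM in WTKL against 1469.6 CPM in LYZKL in conventional CD4 cells (log2 ratio 0.24, 0.22 to 0.26) and 5493 CPM in WTKL against 4689.7 CPM in LYZKL in neutrophils (log2 ratio -0.23, -0.25 to -0.20). Tnfaip3, which codes for the ubiquitin editor A20, was at 655 CPM in WTKL against 775 CPM in LYZKL in conventional CD4 cells (log2 ratio 0.24, 0.21 to 0.27) and at 657 CPM in WTKL against 704 CPM in LYZKL in neutrophils (log2 ratio 0.10, 0.03 to 0.17). Nfkbiz, which codes for an atypical IkappaB, was past 1.5-fold, lower in CD8 cells at 135 CPM in WTKL against 88.3 CPM in LYZKL, log2 ratio -0.61 (-0.72 to -0.51). Its ratio was -0.55 with higher marker minimums, -0.56 with the majority gate and -0.53 in cells without naive markers, all short of 1.5-fold. It was -0.23 in naive-marked cells. In CD8 cells with Gzmk or Eomes, a division described below, it was -0.05 and its interval included 0 (-0.44 to 0.35). Nfkbia and Tnfaip3 were both higher in LYZKL conventional CD4 cells, where Fos and Junb were lower.

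The heat shock genes had 5 members measured in each type but macrophages or monocytes, which had 6. Hsph1 (chromosome 5, 149614287 to 149636376, reverse strand), the HSP110 exchange factor of HSP70, was the heat shock gene that passed 1.5-fold. It was lower by at least 1.5-fold in LYZKL conventional CD4 cells, Treg, T cells not divided and B cells. The values were 29.4 CPM in WTKL against 16.0 CPM in LYZKL in conventional CD4 cells, log2 ratio -0.88 (-1.06 to -0.70). In Treg they were 32.7 CPM in WTKL against 14.7 CPM in LYZKL, log2 ratio -1.15 (-1.60 to -0.70). T cells not divided had 30.2 CPM in WTKL against 17.9 CPM in LYZKL, log2 ratio -0.76 (-1.01 to -0.51), and B cells 27.3 CPM in WTKL against 10.3 CPM in LYZKL, log2 ratio -1.41 (-2.39 to -0.52), from 43 and 11 cells with a UMI. With means of per-cell CPM the ratio in T cells not divided was -0.51, short of 1.5-fold. In Treg 5 cells held 30.4% of the Hsph1 UMIs of WTKL and 18.1% of those of LYZKL. In CD8 cells Hsph1 was at 22.6 CPM in WTKL against 25.9 CPM in LYZKL, and the interval of the ratio included 0 (log2 ratio 0.20, -0.03 to 0.42). Thus 1 of the 5 heat shock genes measured in each of those 4 types passed 1.5-fold lower, and 0 passed it in CD8 cells, neutrophils and macrophages or monocytes, against the shares of all genes given above. Hsp90aa1 was at 378 CPM in WTKL against 343 CPM in LYZKL in conventional CD4 cells (log2 ratio -0.14, -0.19 to -0.10) and 436 CPM in WTKL against 451 CPM in LYZKL in Treg (log2 ratio 0.05, -0.05 to 0.15). Dnajb1, an HSP40 that works with HSP70, was at 72.5 CPM in WTKL against 67.0 CPM in LYZKL in CD8 cells (log2 ratio -0.11, -0.24 to 0.02) and 78.4 CPM in WTKL against 93.6 CPM in LYZKL in neutrophils (log2 ratio 0.26, 0.05 to 0.46). The mitochondrial pair Hspd1 and Hspe1 lies head to head, and the same overlapping heat shock elements are in the windows of both. Hspe1 was at 258 CPM in WTKL against 235 CPM in LYZKL and Hspd1 at 123 CPM in WTKL against 117 CPM in LYZKL in conventional CD4 cells, with ratios of -0.14 (-0.19 to -0.08) and -0.08 (-0.15 to 0.00). Hspa1a in macrophages or monocytes was lower in LYZKL (log2 ratio -0.46, -0.86 to -0.05, short of 1.5-fold) and in neutrophils was at 16.2 CPM in WTKL against 15.3 CPM in LYZKL (log2 ratio -0.09, -0.58 to 0.41).

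Depth and composition differed between the libraries beside these results. Cells of LYZKL were deeper in Treg, with a median of 6272 UMIs per cell against 4637 in WTKL, in conventional CD4 cells (6352.5 against 4906.5) and in T cells not divided (5490.0 against 4546.5), and shallower in CD8 cells (4748 against 5802.5). Among Treg of 3000 to 8000 UMIs (349 and 361 cells) 24 of 30 immediate early genes were lower, and the median was -0.20 in place of -0.33. Among neutrophils in that range (686 and 927 cells) 26 of 29 were lower and the median was -0.27. In conventional CD4 cells in that range the median was -0.03, and in macrophages or monocytes, with 61 and 108 cells, -0.49. In T cells not divided (1302 and 1195 cells) 11 of 30 were lower there, and the median was 0.05 in place of -0.03. Which members were lower in every type was not counted again in that range. The 13 mitochondrially coded genes were all lower in LYZKL Treg (median -0.15), and the 12 measured in neutrophils were all lower there (median -0.45). In Treg, neutrophil markers summed to 245 and 198 CPM and B cell markers to 626 and 422 CPM. Their part in the result was not tested.

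Neutrophils were divided by Retnlg, a transcript of blood neutrophils, which a larger share of cells carried in LYZKL, 68.5% of 1260 cells against 54.6% of 1064 in WTKL. Raw UMIs were used, and LYZKL neutrophils were deeper (median 3871.5 UMIs against 3412.5), so these shares also depend on depth. Among neutrophils with a Retnlg UMI, Fos was at 990.3 CPM in WTKL against 729.7 CPM in LYZKL, log2 ratio -0.44 (-0.52 to -0.36), and Egr1 at 549 CPM in WTKL against 372 CPM in LYZKL, log2 ratio -0.56 (-0.67 to -0.45). There 23 of 29 immediate early genes were lower with a median of -0.18, and 1 (Egr2) was lower by 1.5-fold, against 5.06% of all genes, and 1 (Klf4) higher, against 11.4%. Among neutrophils without a Retnlg UMI, Fos was at 2454 CPM in WTKL against 1354 CPM in LYZKL, log2 ratio -0.86 (-0.94 to -0.78), and Egr1 at 1180.0 CPM in WTKL against 503 CPM in LYZKL, log2 ratio -1.23 (-1.36 to -1.10). In that division 26 of 30 were lower with a median of -0.41, and 13 were lower by 1.5-fold, against 18.1% of all genes, with 1 higher, against 15.7%. The members were thus lower in LYZKL in both divisions, and the values past 1.5-fold were mostly those of cells without Retnlg. When cells of no type with other myeloid transcripts were added to the neutrophils (1243 and 2003 cells), the Fos ratio was -0.43. Marker sums moved too. Neutrophil markers summed to 96317 CPM in WTKL neutrophils and 105679 CPM in LYZKL, macrophage markers to 1648 and 2340.3 CPM, and B cell markers to 299.5 and 111 CPM. What part this make-up has in the difference was not tested beyond these divisions.

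CD8 cells were divided by naive markers (at least 2 UMIs over a set that includes Ccr7, Lef1 and Igfbp4), since 42.2% of WTKL CD8 cells carried them and 15.3% of LYZKL CD8 cells did. These are raw UMIs, and LYZKL CD8 cells were shallower, so the shares also depend on depth. Among naive-marked CD8 cells Fos was at 355 CPM in WTKL against 496 CPM in LYZKL, log2 ratio 0.48 (0.39 to 0.58), and among the others at 631 CPM in WTKL against 823 CPM in LYZKL, log2 ratio 0.38 (0.33 to 0.44). Fos was higher in LYZKL in both divisions and short of 1.5-fold in both. Of the 30 immediate early genes 3 were higher by 1.5-fold in naive-marked cells, against 8.54% of all genes, and 0 lower, against 2.04%. In the others 2 were higher, against 7.37%, and 2 lower, against 4.39%. Fosb was at 104 CPM in WTKL against 169 CPM in LYZKL (log2 ratio 0.70, 0.53 to 0.86) in naive-marked cells and 292 CPM in WTKL against 421 CPM in LYZKL (log2 ratio 0.53, 0.45 to 0.61) in the others. Atf3 was past 1.5-fold in both, with 0.97 (0.50 to 1.44) and 0.92 (0.71 to 1.12), and so was Ier3, with 0.59 (0.40 to 0.78) and 0.67 (0.54 to 0.80). Dusp2 was at 269 CPM in WTKL against 181 CPM in LYZKL (log2 ratio -0.57, -0.70 to -0.43) in naive-marked cells and at 688 CPM in WTKL against 421 CPM in LYZKL (log2 ratio -0.71, -0.77 to -0.65) in the others, so that it passed 1.5-fold lower once naive-marked cells were set aside. From cells without naive markers (1084 and 2262), 2 groups were taken. One had Gzmk or Eomes, markers of circulating effector memory, without Xcl1 or Itga1 (241 and 240 cells). The other had Xcl1 or Itga1 without Gzmk or Eomes (262 and 936 cells). Xcl1 and Itga1 mark tissue-resident cells, but Xcl1 is also in the list of activation genes used below. Cells with both pairs of markers or neither were in no group. In the former Fos was at 539 CPM in WTKL against 773 CPM in LYZKL (log2 ratio 0.52, 0.38 to 0.66) and in the latter at 619 CPM in WTKL against 824 CPM in LYZKL (log2 ratio 0.41, 0.31 to 0.52). Dusp2 was lower in both, with -0.72 (-0.87 to -0.57) and -0.78 (-0.90 to -0.66). Fosb was at 0.82 (0.61 to 1.03) in the former and 0.33 in the latter. With Gzmk or Eomes, Nr4a2 was lower in LYZKL, at 452 CPM in WTKL against 398 CPM in LYZKL (log2 ratio -0.18, -0.36 to -0.01). There the intervals of Nr4a3 (0.31, -0.02 to 0.64) and Dusp1 (0.11, -0.04 to 0.26) included 0. In cells with Gzmk or Eomes 4 immediate early genes were higher by 1.5-fold, against 15.7% of all genes, and 3 lower, against 11.5%. With Xcl1 or Itga1 3 were higher, against 11.3%, and 3 lower, against 6.23%. The median over the immediate early genes lay between -0.09 and 0.01 in the 4 divisions. Markers of other cells moved in all CD8 cells as well: neutrophil markers summed to 407 CPM in WTKL and 582 in LYZKL, macrophage markers to 327 and 430.5 CPM and B cell markers to 270.1 and 148 CPM, and their part was not tested.

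**Figure D3:**
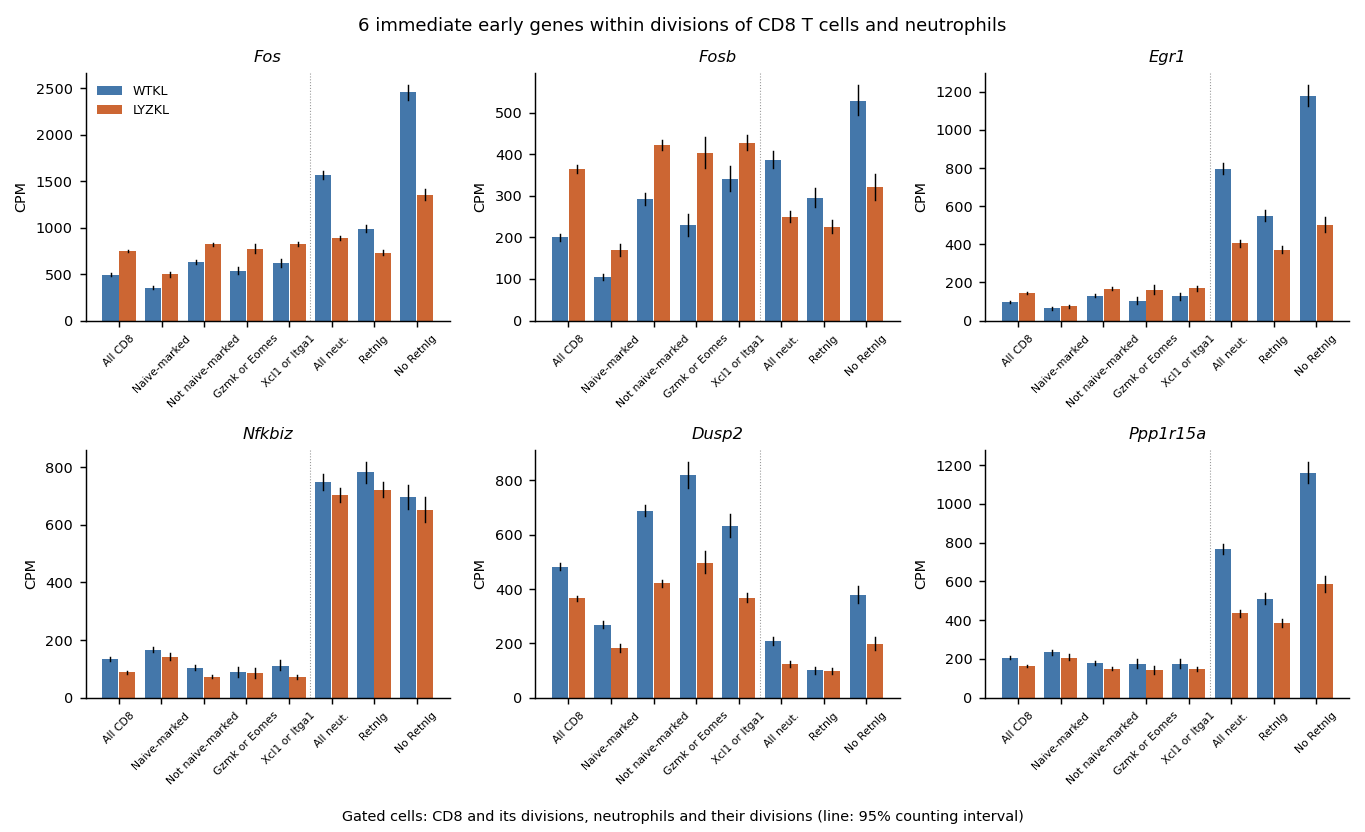
Log2 ratio of LYZKL over WTKL, with 95% counting intervals, of selected members in all CD8 cells, 4 divisions of CD8 cells, all neutrophils and 2 divisions of neutrophils. Fos stays above 0 in each CD8 division and below 0 in both neutrophil divisions, at -0.44 with Retnlg and -0.86 without.

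Among conventional CD4 cells, naive-marked cells made up 33.8% in WTKL and 40.5% in LYZKL, where the cells were deeper. These shares too depend on depth. Dusp2 was higher in LYZKL in both divisions, with 0.44 (0.33 to 0.55) in naive-marked cells and 0.77 (0.69 to 0.85) in the others. In naive-marked cells 1 of 30 immediate early genes (Egr3) was higher by 1.5-fold, against 4.13% of all genes, and 0 lower, against 3.27%. In the others 1 (Dusp2) was higher, against 3.72%, and 1 (Klf4) lower, against 3.66%. Hsph1 was lower in both, with -0.82 (-1.10 to -0.53) and -0.92 (-1.16 to -0.69), and in T cells not divided it was lower with and without a UMI of the gamma receptor constant genes, at -0.87 (-1.28 to -0.47) and -0.69 (-1.02 to -0.37) on the log2 scale. In undivided T cells with such a UMI 0 immediate early genes passed 1.5-fold, against 4.29% of all genes higher and 4.24% lower. In those without it 2 (Ier3 and Atf3) were higher, against 3.42%, and 0 lower, against 2.44%. Klf4 in conventional CD4 cells without naive markers was at 94.9 CPM in WTKL against 55.1 CPM in LYZKL, log2 ratio -0.79 (-0.91 to -0.66).

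The spread over cells was read after each cell had been thinned to 1000 UMIs. The sum over the 30 immediate early genes had a median of 36 UMIs per neutrophil in WTKL (5th to 95th percentile 14 to 70) and 27 in LYZKL (12 to 49). In Treg it was 18 (6 to 42.2) and 15 (4 to 31). CD8 cells had medians of 12 and 11, and conventional CD4 cells 13 and 12. The ranges over cells overlapped widely, and the neutrophil distribution in LYZKL lay lower at each of these percentiles. Thinned CD8 cells had a Fos UMI in 31.8% of cells in WTKL and 42.3% in LYZKL, against 70.4% and 73.2% before thinning, and neutrophils in 57.8% and 45.9%. Treg had an Nr4a1 UMI in 31.7% and 21.7% of thinned cells. The median heat shock sum was 0 or 1 UMI in each type.

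**Figure D4:**
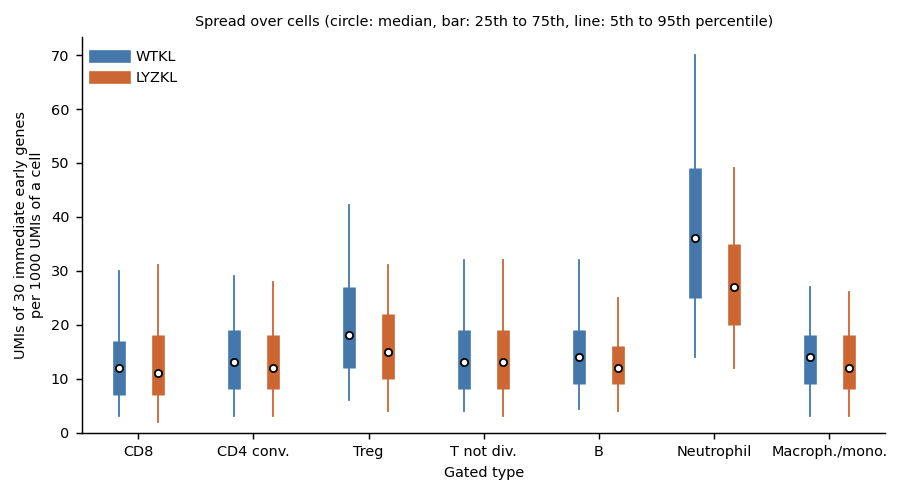
Sum of the 30 immediate early genes per cell after thinning to 1000 UMIs, for each type and library (median, quartiles, and 5th and 95th percentiles over cells). Neutrophils lie highest, with medians of 36 in WTKL and 27 in LYZKL, and the T cell types lie between 11 and 18.

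Which genes go with which in single cells was described by comparing, within a type and library, cells that had an Nr4a1 UMI after thinning with cells that had none, and likewise for Fos. The gene used to divide the cells was left out. Cells are not replicates, so these are descriptions with no test, and cells with a UMI of a high gene may differ in other ways. In CD8 cells 24 of 27 other immediate early genes were higher in cells with Nr4a1 in both libraries (medians 0.58 in WTKL and 0.72 in LYZKL). Over the 5637 genes of at least 20 CPM in both libraries 24.9% were higher in both and 27.9% lower in both (medians 0.01 and -0.03). Of 21 T cell activation genes from another list 17 were higher in both and 0 lower in both (medians 0.60 and 0.29). The 5 heat shock genes were higher in both for 2. Xcl1, a chemokine of activated CD8 cells, was at 459 CPM with Nr4a1 and 151 CPM without in WTKL (log2 ratio 1.61, 1.28 to 1.92), and in LYZKL at 454 and 187 CPM (1.28, 1.02 to 1.54). Cells with Nr4a1 thus had more of most genes of both lists.

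Division by Fos gave another pattern in CD8 cells. Of the 27 immediate early genes 25 were higher in cells with Fos in both libraries (medians 0.62 and 0.59), with Fosb at 1.91 in WTKL and 1.64 in LYZKL. Over all 5637 genes 24.1% were higher in both and 30.5% lower in both. Of the 21 activation genes, however, 7 were higher in both and 5 lower in both (medians 0.14 and 0.01). Cd69, a surface protein that rises early after activation, was among the higher ones, at 0.88 and 0.95, whereas Xcl1 was at 0.68 in WTKL and -0.13 in LYZKL. Of the heat shock genes 1 of 5 was higher in both. In conventional CD4 cells 19 of 21 activation genes were higher with Nr4a1 in both libraries, against 9 of 21 with Fos (5 lower), while the immediate early genes were higher for 27 of 27 and 25 of 27. Over the 5824 genes compared there, 26.2% were higher in both libraries with Nr4a1 and 23.0% with Fos. Treg had 12 of 21 activation genes higher with Nr4a1 and 6 of 21 with Fos, against 25.6% and 24.1% of 5742 genes. Nr4a1 and Fos were thus each accompanied by most immediate early genes in T cells, and activation genes accompanied Nr4a1 in larger number than Fos. With thinning to 2000 UMIs, CD8 cells had 17 of 21 activation genes higher with Nr4a1 and 11 with Fos (28.3% and 24.2% of all genes). Conventional CD4 cells had 20 of 22 and 10 of 22 (26.7% and 24.5%), and Treg 11 of 21 and 8 of 21 (25.8% and 26.1%). The contrast was thus smaller at that depth in CD8 cells and Treg. The difference between the divisions was not tested. Hspa1a or Hspa1b could not be used in this way, since after thinning 8 of 1872 CD8 cells in WTKL (0.427%) and 7 of 2669 in LYZKL (0.262%) had a UMI of either gene, and 24 and 23 neutrophils (2.27% and 1.83%).

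**Figure D5:**
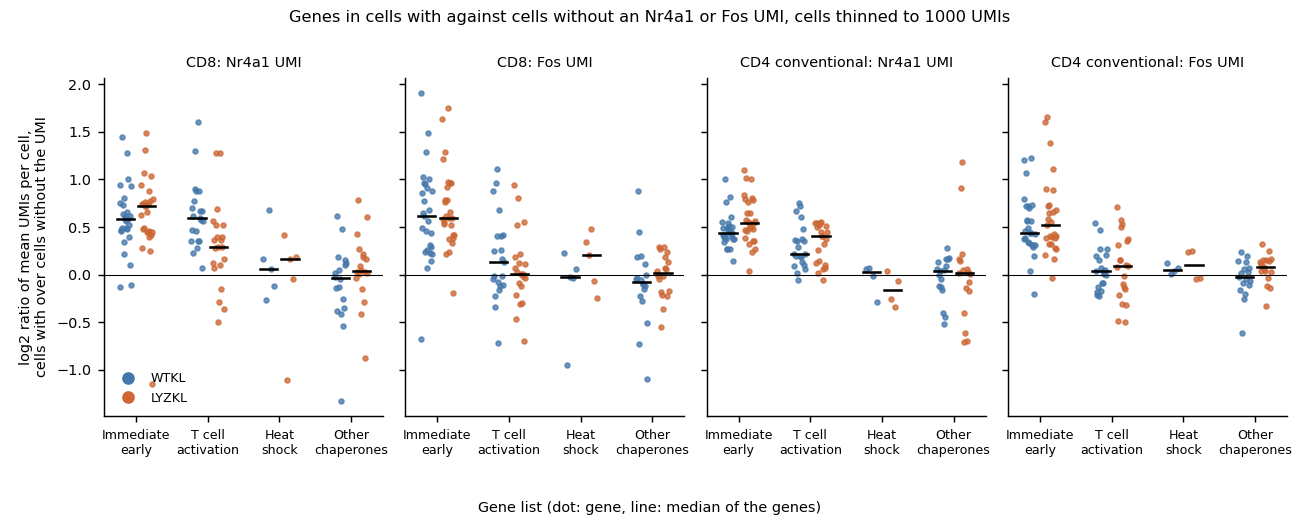
Log2 ratio of each gene in cells with against cells without an Nr4a1 or a Fos UMI (thinned to 1000 UMIs), LYZKL plotted against WTKL, for CD8 and conventional CD4 cells. Immediate early genes lie to the upper right under both divisions, while T cell activation genes lie there for Nr4a1 (17 of 21 in CD8 cells) and on both sides for Fos (7 of 21 higher, 5 lower).

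Other genes of these responses were taken from further lists. Of 25 T cell activation genes in CD8 cells 17 were higher and 8 lower in LYZKL (median 0.21). By sign this was near the share of all genes, of which 67.1% were higher by total UMIs and 52.3% with TMM factors. Past 1.5-fold 4 of the 25 were higher, against 8.7% of all genes, and 2 lower, against 3.16%. The list ran from Tnfsf8 at 88.8 CPM in WTKL and 53.2 in LYZKL (log2 ratio -0.74) to Tnfsf11, the ligand RANKL, at 46.5 and 148 CPM (1.67). In conventional CD4 cells 12 were higher and 13 lower, where 51.5% of all genes were lower. Past 1.5-fold 3 were higher there, against 2.84% of all genes, and 2 lower, against 2.9%. The values ran from the growth factor Il2 at 28.9 and 11.2 CPM (-1.38) to interferon gamma (Ifng) at 68.2 and 145 CPM (1.09). Of 24 such genes measured in Treg 16 were lower (median -0.13, with 53.7% of all genes lower). Past 1.5-fold 1 was lower, against 5.97% of all genes, and 3 were higher, against 4.66%. Activation genes thus went both ways in each of these types.

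Genes known to be induced by tissue dissociation that are not members (22 measured in CD8 cells) were higher for 8 and lower for 14 in CD8 cells (median -0.10). There 32.9% of all genes were lower by total UMIs. Past 1.5-fold 4 of the 22 were higher, against 8.7% of all genes, and 2 lower, against 3.16%. The lowest was Socs3, an inhibitor of cytokine signalling, at 216 CPM in WTKL against 114 CPM in LYZKL (log2 ratio -0.92), and the highest Ier5l, at 10.2 and 32.0 CPM (1.66). In Treg 17 were lower and 5 higher (median -0.08), with 2 lower by 1.5-fold, against 5.97% of all genes, and 0 higher, against 4.66%. In neutrophils 15 were lower and 7 higher (median -0.08), with 3 lower by 1.5-fold, against 8.8%, and 0 higher, against 5.18%. Rhob, a small GTPase, was at 158 and 76.7 CPM there (-1.05). Other chaperones and heat shock factor targets, 19 measured in T cell types, were lower for 14 in conventional CD4 cells, with a median of -0.10, and for 9 in CD8 cells and 9 in Treg. Stress and unfolded protein response genes were lower for 10 of 11 in conventional CD4 cells (median -0.22) and for 9 of 12 in neutrophils (median -0.38), where Xbp1, a factor of secretory capacity, was at 204 CPM in WTKL with a log2 ratio of -1.07. The lists hold few genes, and the share of all genes that were lower was 51.5% in conventional CD4 cells, 53.7% in Treg and 51.1% in neutrophils. Whether receptor signals or handling of the cells set the levels of the members was not tested.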

How the data were processed

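Libraries were made with Chromium 3′ v3.0 reagents, per the labels. The deposited matrices give the count of UMIs for each gene in each barcode, unnormalized, which the authors obtained with Cell Ranger 6.1.2 and the mm10 genome, as the submitters' processing notes state. The authors' remaining files list gene names and barcodes, with no other unit. Further filters are not given in the sources used here. One allele of the recipients and some markers used to sort cells into types are not reported here. The members and lists were chosen with earlier results of these data known.

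Cells were kept with at least 500 genes and at most 10% mitochondrially coded UMIs. Each was typed by raw UMIs: T, at least 2 over Cd3d, Cd3e and Cd3g; B, at least 2 over Cd79a, Cd79b and Ms4a1; neutrophil, at least 3 over Csf3r, Cxcr2, Retnlg, Mmp9, Hdc and Stfa2l1; macrophage or monocyte, at least 3 over a set that includes Csf1r, Adgre1, C1qa, C1qb, C1qc, Ms4a7, Fcgr1 and Ms4a6c. T cells were divided by Cd8b1, Foxp3, Cd4 and Trdc, and those with none of these or with a mixture stayed undivided. Leaving out mixed cells was the treatment of doublets.

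UMIs were summed per library and type and divided by the total of the type (CPM). Log2 ratios carry exact conditional binomial intervals, levels exact Poisson intervals and shares exact Clopper-Pearson intervals, all at 95%. The interval of a list's median is that of the gene or genes at the median. No test was run, since each group is 1 library. The ratio intervals were tested on simulated counts drawn from the Poisson model that they assume. That checks the calculation and not whether the model holds for these cells. Clumping of UMIs within cells was not simulated. Values were named for members past 1.5-fold and for a set of 10 members (Fos, Jun, Junb, Egr1, Nr4a1, Dusp1, Nfkbia, Hspa1a, Hspa1b and Hsp90aa1), with others added for their role after their values were seen. Examples of other lists are those of at least 20 CPM with the largest ratio in each direction, and indicator genes needed 20 CPM in both libraries. Alternatives changed the cell filters, the doublet treatment (Scrublet in scanpy 1.11.5 at 0.8% per 1000 cells), the gates, the scaling (edgeR 4.0.16), the CPM minimum and the thinning. Divisions of CD8 cells by Gzmk, Eomes, Xcl1 and Itga1, of undivided T cells by receptor gamma genes, the wider neutrophil gate and the depth range were chosen after seeing the data. Promoters are from RefSeq and gene positions from GENCODE, both on GRCm38. Python 3.11.15 with numpy 2.4.6 and scipy 1.17.1 was used.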

Additional observations from a re-analysis of the deposited data

Results flagged for a closer look

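A set of 4 members differed in opposite directions in a pair of cell types, each by at least 1.5-fold with an interval clear of 0. The difference between the types was not tested. Fos had a log2 ratio of LYZKL over WTKL of 0.60 in CD8 cells and -0.82 in neutrophils, which are 1.41 apart. It fell short of 1.5-fold in CD8 cells with TMM factors (0.50) and in each division of them, and in neutrophils with Retnlg (-0.44) and with the wider gate (-0.43). Fosb, which pairs with Jun proteins as Fos does, was at 0.87 in CD8 cells and -0.63 in neutrophils, 1.497 apart. In neutrophils it was -0.57 with TMM factors, -0.58 with the majority gate and -0.48 in the depth range. It was -0.31 there with the wider gate and -0.39 with Retnlg. In CD8 cells it was 0.53 without naive markers and 0.33 with Xcl1 or Itga1. Dusp2 was at 0.63 in conventional CD4 cells and -0.76 in neutrophils, 1.398 apart. In neutrophils it was -0.52 in the depth range and -0.04 with Retnlg, and in naive-marked CD4 cells 0.44. Klf4 was at 0.78 in neutrophils and -0.65 in conventional CD4 cells, 1.43 apart, and its neutrophil value rests on 75 and 118 cells with a UMI. It was 0.45 and 0.37 in neutrophils with higher marker minimums and the majority gate, and in conventional CD4 cells -0.58 with means of per-cell CPM, -0.57 in the depth range and -0.36 in naive-marked cells.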

How the results depend on the processing

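With 1 library in each group, every value compares these libraries and not the genotypes, and depth limits low genes such as Hspa1a and Hspa1b. No paired analysis was possible because each group has 1 library and no replicate number, and for the same reason no replicate could be left out. Over 14 list medians and 218 alternative values, 202 kept their direction or moved little, 14 moved further and 2 reversed. The cause was not tested for any of these. For immediate early genes the range of the median over the alternatives was -0.41 to -0.20 in Treg, -0.42 to -0.18 in neutrophils and -0.09 to 0.07 in CD8 cells. The conventional CD4 median of -0.12 was -0.046 with means of per-cell CPM, -0.043 in naive-marked cells and -0.028 among cells of 3000 to 8000 UMIs. The neutrophil median of -0.41 was -0.18 with Retnlg, and the macrophage or monocyte median of -0.12 was -0.49 in the depth range. The heat shock median in neutrophils (-0.17) turned positive with Retnlg (0.034) and with the wider gate (0.19), and was -0.039 with the majority gate and -0.042 in the depth range. In CD8 cells it was -0.02, but 0.19 in naive-marked cells and 0.16 with Gzmk or Eomes. In conventional CD4 cells (-0.14) it was -0.21 with no CPM minimum, -0.32 in naive-marked and -0.092 in other cells. The depth range gave -0.43 in Treg (-0.17) and -0.99 in macrophages or monocytes (-0.24). Ier3 in B cells reversed from 0.83 to -0.21 after Scrublet.

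Counts past 1.5-fold moved in 46 of 436 alternative values. Of 26 differences of single members past 1.5-fold in a type, 8 stayed past it under every alternative run (Atf3 in CD8 and B cells, Egr1 and Nr4a2 in Treg, Egr2 in B cells, and Hsph1 in conventional CD4, Treg and B cells) and 18 fell short under at least 1. Of the 8, Egr2 in B cells rests on 5 and 9 UMIs, and its interval includes 0. Treg, B cells and macrophages or monocytes were not divided, and each of their differences met 14 alternatives. Those of the other types met 16 to 18, divisions of the cells among them. Egr1 and Ppp1r15a in neutrophils fell short with Retnlg only, and Dusp2 in conventional CD4 cells in naive-marked cells only. The types are therefore not compared alike by these counts. Immediate early genes lower in neutrophils numbered 8, but 5 with TMM factors (632 of all 8182 genes), in the depth range or with the wider gate. They were 1 with Retnlg (5.06% of all genes) and 13 without (18.1%). In Treg they were 2, but 5 after Scrublet and 4 with per-cell means. In macrophages or monocytes they were 1, but 9 in the depth range (61 and 108 cells) and 0 with TMM factors (502 of all 9100 genes) or per-cell means. In CD8 cells those higher were 4, but 2 with the majority gate and in cells without naive markers (7.37% of all genes). The share of all genes is not given here for the depth range, Scrublet, the other gates or per-cell means. Those counts therefore have no background beside them.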
